A study of Mus musculus with 4 samples.

Results

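The 9 genes described here are effectors and targets of the Hippo pathway in mouse skin: the co-activators Yap1 and Wwtr1, the DNA-binding partners Tead1 and Tead3, the kinase Lats2, the angiomotin-like genes Amotl1 and Amotl2, and the secreted-protein genes Cyr61 and Ctgf. They were taken by symbol from the 17721 genes of the deposited table, and all 9 were found. The choice was made with the difference between genotypes already known, so the values of the 9 genes between genotypes are given as a description, without a test.

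RNA was sequenced from back skin epidermis, freed with the enzyme dispase, of C57BL/6 mice at postnatal day 63. There were 2 libraries from wild type mice and 2 from LDB2-/- mice. The product of Ldb2 is a cofactor that bridges LIM-homeodomain and other LIM proteins in transcription complexes. How the allele was made, the sex of the mice and how many mice went into a library are not given in the sources used here. Nothing states that the libraries of a genotype came from separate animals, so the p-values measure the spread between these libraries, which may be technical.

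The total count ran from 54095522 to 68436842 per library. The targeted gene Ldb2 had 0 and 8 counts in the wild type libraries against 0 and 0 in LDB2-/-, too few to check the genotype labels. The epidermal keratin gene Krt14 was abundant in all 4 libraries, from 2274 to 5676 FPKM, and the suprabasal keratin gene Krt10 was at 643.3 to 7733 FPKM. FPKM is fragments per kilobase of transcript scaled to library size, the scale on which levels of different genes are compared below. The genotypes differed very widely: of 12400 genes tested, the edgeR quasi-likelihood test (threshold: adjusted p 0.05) called 57.2%, of which 28.4% of genes were higher in LDB2-/- and 28.8% lower. Scaled by the library total alone, the same test called 2248 genes higher and 5096 lower, against 3521 and 3576 with TMM scaling. The median log2 fold change moved from -0.01 with TMM to -0.33 with the library total, a shift that bears on every small difference below.

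The Hippo pathway is a kinase cascade in which MST kinases activate LATS kinases, and LATS kinases phosphorylate YAP and TAZ, the products of Yap1 and Wwtr1, which are then held in the cytoplasm or degraded. Unphosphorylated YAP and TAZ enter the nucleus and bind TEAD factors, which recognise the DNA letters GGAATG. Their targets include Cyr61 and Ctgf and also genes of negative regulators of YAP and TAZ, Lats2 and Amotl2. In skin, YAP and TAZ are known for their role in basal keratinocyte proliferation and wound repair. Transcript levels do not report the phosphorylation or location of YAP and TAZ, which were not measured here.

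The upstream sequence of Cyr61 is shown because Cyr61 is a textbook TEAD target and was, with Ctgf, the member with the largest difference between genotypes. The 250 bases before its start (RefSeq, GRCm38.p6, chr3:145649986-145650235, minus strand) follow 5′ to 3′, with the TEAD letters in capitals.
Cyr61: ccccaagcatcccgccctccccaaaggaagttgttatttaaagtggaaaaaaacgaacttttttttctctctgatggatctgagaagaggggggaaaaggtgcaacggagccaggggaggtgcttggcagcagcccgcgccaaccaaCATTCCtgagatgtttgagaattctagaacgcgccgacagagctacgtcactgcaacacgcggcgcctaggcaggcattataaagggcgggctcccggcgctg
The letters CATTCC are GGAATG read on the other strand, and their first base lay 103 bases before the start.

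Promoter windows, from 250 bases before to 50 bases after a RefSeq start, were matched for 7 of the 9 genes, all but Ctgf and Tead1. The letters GGAATG, on either strand, were found for 6 of these 7 genes, in 8 of their 11 windows, some of which overlap. Amotl1 was the gene without them. Among all windows given, 14.7% of 32851 held these letters, as did 16.6% of 27025 genes. The 30 bases around 1 match per gene are shown for the other genes, to compare the flanks of the same letters at genes whose transcripts differed little between genotypes.
Yap1: cgggagtctgcaGGAATGtagcgacgcgca
Wwtr1: ggtaaactcaaaGGAATGcagataggcgct
Amotl2: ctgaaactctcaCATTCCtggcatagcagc
Lats2: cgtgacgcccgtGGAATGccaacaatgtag
Tead3: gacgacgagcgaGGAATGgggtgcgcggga
The matches began 141 bases before the start of Yap1 (chr9:8004720-8004749), 65 before that of Amotl2 (chr9:102717727-102717756) and 136 before the upstream start of Wwtr1 (chr3:57576029-57576058). The match of Lats2 (chr14:57746102-57746131) began at base 5 of the transcript. Tead3 had 4 matches in its 3 windows. The one shown (chr17:28350970-28350999) began 182 bases before its upstream start. The other 3 lay in the window of a second start (chr17:28350551-28350850) and began 123 and 114 bases before that start and at base 3 of the transcript. The site shown for Amotl2 is on the plus strand and the others on the minus strand of GRCm38.p6. Letters of an AP-1 site, TGANTCA, and of a CArG box, the element bound by serum response factor, were found in 0 of the 11 windows, against 7.81% and 1.63% of all windows. With so few windows and such low shares, nothing is read from this count of 0. A match is a description of the letters and not evidence of binding.

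All 9 genes had lower FPKM in both LDB2-/- libraries than in both wild type libraries, as 56.1% of tested genes did. The sizes differed greatly: Cyr61 and Ctgf were more than 10-fold lower, Tead1 and Amotl1 were lower by a smaller factor, and the other 5 had log2 fold changes between -0.33 and 0.05 with TMM scaling. After TMM scaling the genotypes did not overlap for 7 of the 9, all lower in LDB2-/-, and overlapped for Tead3 and Amotl2. On that scale 41.7% of tested genes lay lower in LDB2-/- without overlap. Nothing is read from these counts, since the genes were chosen on this comparison.

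**Figure D1:**
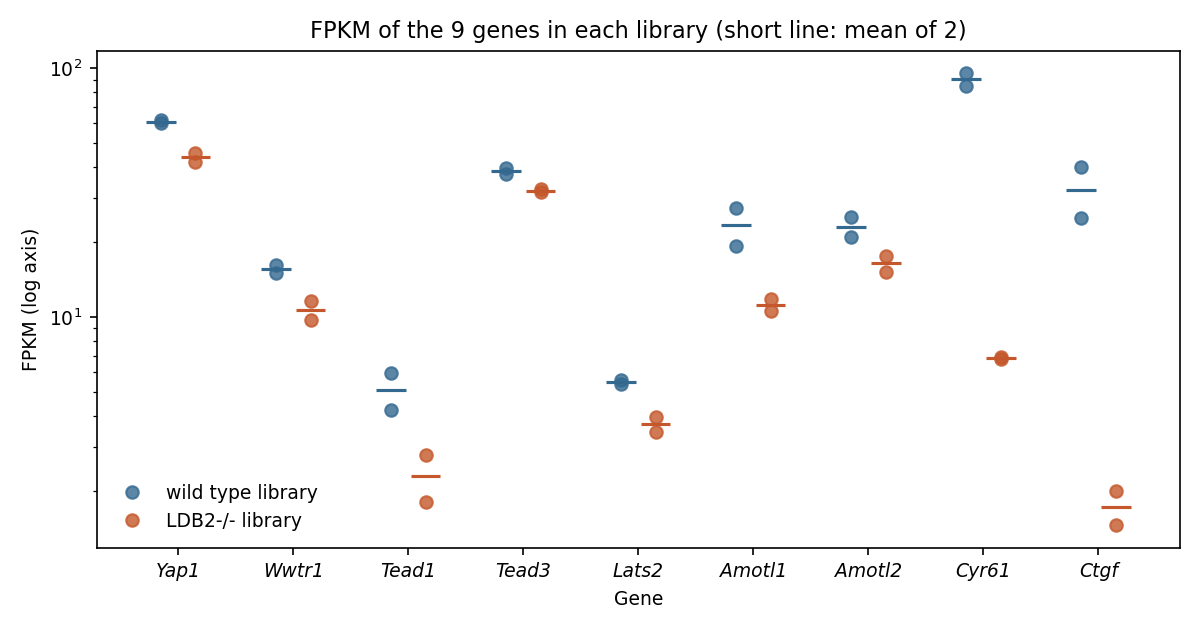
FPKM of each of the 9 genes, on a log axis, in the 2 wild type (blue) and 2 LDB2-/- (orange) libraries, with a short line at each mean. Cyr61 stands at 85.0 and 95.3 in wild type against 6.77 and 6.90, and Tead3 at 39.7 and 37.6 against 32.5 and 31.8.

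Cyr61 (now also called Ccn1, gene ID 16007, chr3:145646971-145649985) encodes a matricellular protein that binds integrins and is induced within minutes by serum, injury and stretch. It stood at 85.0 and 95.3 FPKM in wild type libraries 1 and 2 and at 6.77 and 6.90 FPKM in LDB2-/- libraries 1 and 2. The libraries of each genotype lay close together and far from the other genotype. TMM-scaled CPM, a gene's counts relative to the scaled total of its library, were 166.7 ± 11.1 in wild type and 15.8 ± 0.857 in LDB2-/- (mean ± SD, n = 2 each), a log2 fold change of -3.40 (SE 0.12), or 10.5-fold lower. Of the 12400 genes tested, 124 had a lower log2 fold change.

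Ctgf (now also called Ccn2, gene ID 14219, chr10:24595442-24598683) encodes connective tissue growth factor, a matricellular protein related to the product of Cyr61 and a marker transcript of YAP and TAZ activity. Its FPKM was 40.0 and 24.9 in wild type against 2.0 and 1.46 in LDB2-/-. The wild type libraries differed more from each other than they did for Cyr61, yet both lay far above the LDB2-/- libraries. The TMM-scaled CPM was 71.2 ± 24.4 in wild type and 4.72 ± 0.849 in LDB2-/-, a log2 fold change of -3.92 (SE 0.29), or 15.1-fold lower, and 73 tested genes had a lower value. In the authors' deposited table the signed fold change was -10.6 for Cyr61 and -15.2 for Ctgf.

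The CCN family was carried by these 2 genes. Of its other members, Nov, Wisp1 and Wisp2 were at 0.188 FPKM or less in every library and were not tested. The summed FPKM of the 5 CCN genes was 125.2 and 120.3 in wild type against 9.06 and 8.75 in LDB2-/-. Within that sum Cyr61 took 67.9% and 79.2% in wild type against 74.7% and 78.9% in LDB2-/-, so the genotypes overlapped in its share but not in the sum. The ratio of Ctgf to Cyr61 FPKM was 0.470 and 0.261 in wild type against 0.295 and 0.211 in LDB2-/-, and the genotypes overlapped.

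Yap1 (gene ID 22601, chr9:7931999-8004638), the principal co-activator, had 60.0 and 61.9 FPKM in wild type against 45.8 and 42.1 FPKM in LDB2-/-. The TMM-scaled CPM was 231.2 ± 1.54 in wild type and 207.7 ± 3.70 in LDB2-/-, and the log2 fold change was -0.15 (SE 0.10). Wwtr1 (gene ID 97064, chr3:57455644-57575910), which encodes TAZ, had 15.1 and 16.1 FPKM in wild type against 11.6 and 9.77 FPKM in LDB2-/-, with a log2 fold change of -0.23 (SE 0.11), and -0.15 without LDB2-/- replicate 2. For both, the genotypes did not overlap in either unit, and the distance between them depended on the scaling. The log2 fold changes with the library total were -0.47 for Yap1 and -0.54 for Wwtr1, beside the median of -0.33.

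Ratios within a library do not depend on how libraries are scaled. The ratio of Wwtr1 to Yap1 FPKM was 0.251 and 0.261 in wild type against 0.254 and 0.232 in LDB2-/-, so the balance of the co-activators overlapped between genotypes. The ratio of Cyr61 to Yap1 was 1.42 and 1.54 in wild type against 0.148 and 0.164 in LDB2-/-. For Ctgf to Yap1 it was 0.666 and 0.402 in wild type against 0.0436 and 0.0346 in LDB2-/-. The transcripts of the targets Cyr61 and Ctgf were thus lower relative to the transcript of their co-activator, whatever the scaling.

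Tead3 (gene ID 21678, chr17:28331671-28350805) was the main TEAD gene of this tissue. It had 39.7 and 37.6 FPKM in wild type against 32.5 and 31.8 FPKM in LDB2-/-. Its log2 fold change was 0.05 (SE 0.11) with TMM scaling and turned to -0.26 with the library total and with limma on log2(FPKM + 1) or log2(FPKM + 0.1), to -0.10 with quantile normalization and to -0.03 with a mean FPKM of 5 or more. Tead1 (gene ID 21676, chr7:112679356-112906784) had 4.25 and 5.97 FPKM in wild type against 2.80 and 1.81 FPKM in LDB2-/-. The genotypes did not overlap, although the libraries of each spread widely. The log2 fold change of Tead1 was -0.82 (SE 0.23), with -0.59 without wild type replicate 2 and -0.58 without LDB2-/- replicate 2.

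Lats2 (gene ID 50523, chr14:57689662-57746212), the kinase that restrains YAP and TAZ and is itself one of their targets, had 5.40 and 5.61 FPKM in wild type against 3.97 and 3.45 FPKM in LDB2-/-. Its log2 fold change was -0.33 (SE 0.19), with -0.15 without LDB2-/- replicate 2 and -0.52 without LDB2-/- replicate 1. Its paralog Lats1 was at 9.24 and 11.4 FPKM in wild type against 5.66 and 4.36 in LDB2-/-. The ratio of Lats2 to Lats1 was 0.584 and 0.492 in wild type against 0.702 and 0.790 in LDB2-/-, higher in LDB2-/- without overlap.

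Amotl1 and Amotl2 encode scaffold proteins that bind YAP at cell junctions and the actin cytoskeleton. Amotl1 (gene ID 75723, chr9:14541966-14662974) had 19.4 and 27.3 FPKM in wild type against 11.8 and 10.6 FPKM in LDB2-/-. Its log2 fold change was -0.74 (SE 0.17). Leaving out wild type replicate 1 gave -0.95 and leaving out wild type replicate 2 gave -0.48, so the gap between the wild type libraries moved the value by more than 1.5 times. Amotl2 (gene ID 56332, chr9:102717091-102733418), a direct YAP target, had 21.1 and 25.2 FPKM in wild type against 17.6 and 15.2 FPKM in LDB2-/-, with a log2 fold change of -0.17 (SE 0.13). That value was -0.28 without wild type replicate 1, -0.05 without wild type replicate 2 and -0.11 without LDB2-/- replicate 2. The ratio of Amotl1 to Amotl2 was 0.920 and 1.09 in wild type against 0.668 and 0.698 in LDB2-/-. The third family member, Amot, was at 0.258 FPKM or less in every library.

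**Figure D2:**
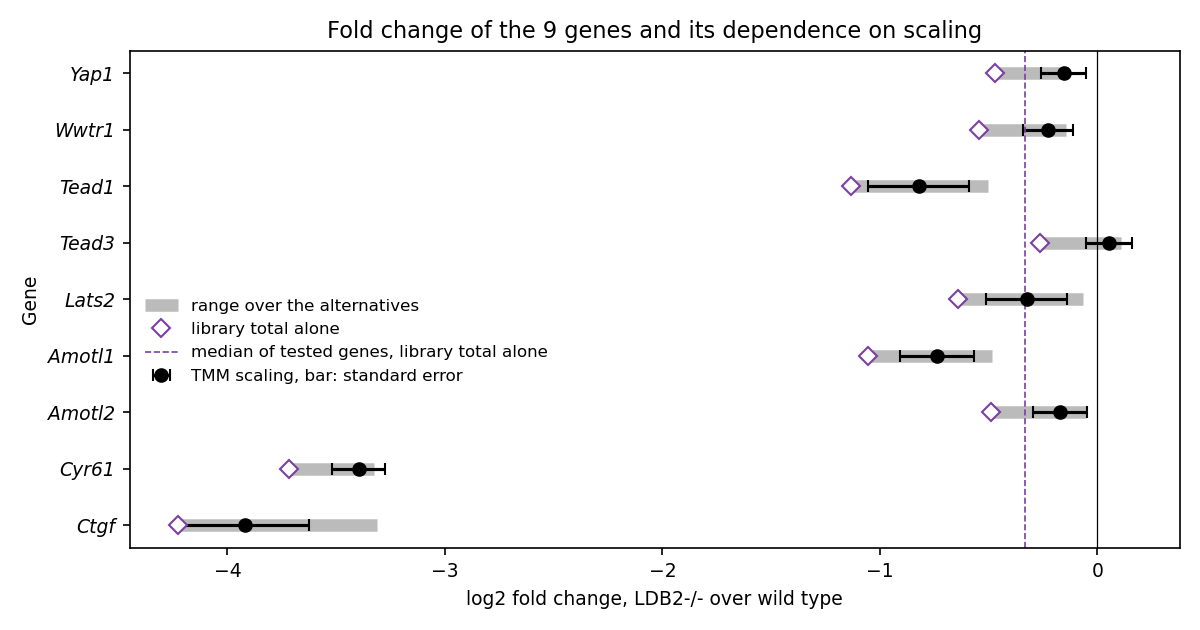
Log2 fold change of each gene, LDB2-/- over wild type, with TMM scaling (black, bar: standard error), with the library total alone (purple diamond) and over all alternatives (grey), beside the median of tested genes under the library total (dashed). Cyr61 and Ctgf stay at -3.31 or lower throughout, while Tead3 lies on both sides of 0.

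The order of the levels changed with genotype. In wild type the mean FPKM ran from Cyr61 (90.1) and Yap1 (61.0) through Tead3 (38.6), Ctgf (32.4), Amotl1 (23.3), Amotl2 (23.1) and Wwtr1 (15.6) to Lats2 (5.50) and Tead1 (5.11). The ranges of the libraries overlapped between Tead3 and Ctgf, Ctgf and Amotl1, Amotl1 and Amotl2, and Lats2 and Tead1. In LDB2-/- Yap1 came first at 43.9, followed by Tead3 at 32.2, Amotl2 at 16.4, Amotl1 at 11.2 and Wwtr1 at 10.7. Cyr61 came sixth at 6.84, and Lats2 (3.71), Tead1 (2.30) and Ctgf (1.73) were last, with overlap between Amotl1 and Wwtr1 and between Tead1 and Ctgf. Among all deposited genes, Cyr61 moved from percentile 95.4 of FPKM in wild type to 61.1 in LDB2-/- and Ctgf from 85.5 to 40.7, whereas Yap1 stood at 92.6 and 90.2.

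Genes of the pathway outside the 9 were taken from lists and tested in the same fit. The lists were chosen with earlier results of these data known, so their counts are not an independent test. A share of calls near 57.2% in a list is what tested genes show in general. Among TEAD factors and their VGLL cofactors, 4 genes were tested, of which 1 rose and 2 fell. Tead2 rose by 2.92 in log2 units (SE 0.53, adjusted p = 0.00561), from 2.1 and 0.694 FPKM to 7.74 and 9.31 FPKM. Wild type library 2 lay below 1 FPKM, so Tead2 entered the test only with the LDB2-/- libraries, where it was high. The wild type libraries also differed from each other, with 303 and 86 counts. Tead4 fell by 1.11 (SE 0.22, adjusted p = 0.00827), from 3.73 and 4.79 FPKM to 1.68 and 1.46 FPKM. Vgll3, a gene of a TEAD cofactor, fell by 3.62 (SE 0.23, adjusted p = 0.000194), from 10.6 and 10.6 FPKM to 0.829 and 0.559 FPKM. It reached 1 FPKM in the wild type libraries alone, so it entered the test through the genotype where it was high. Vgll4, a repressor of TEAD activity, was at 25.1 and 29.2 FPKM in wild type against 19.1 and 11.6 in LDB2-/- and was not called (log2 fold change -0.51, adjusted p = 0.110). Over its alternatives the adjusted p ran from 0.00752 to 0.372, and a call as lower came without LDB2-/- replicate 1 (-0.85, adjusted p = 0.00752), with the library total (-0.82) and with 3 fits of limma on FPKM.

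The makeup of the TEAD family is given by the share of each gene. Tead3 made up 79.8% and 76.7% of the summed TEAD FPKM in wild type against 72.7% and 71.7% in LDB2-/-. Tead2 took 4.21% and 1.42% in wild type against 17.3% and 21.0% in LDB2-/-, while Tead1 took 8.54% and 12.2% against 6.25% and 4.07%. Tead3 was the most abundant TEAD transcript in all 4 libraries.

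**Figure D3:**
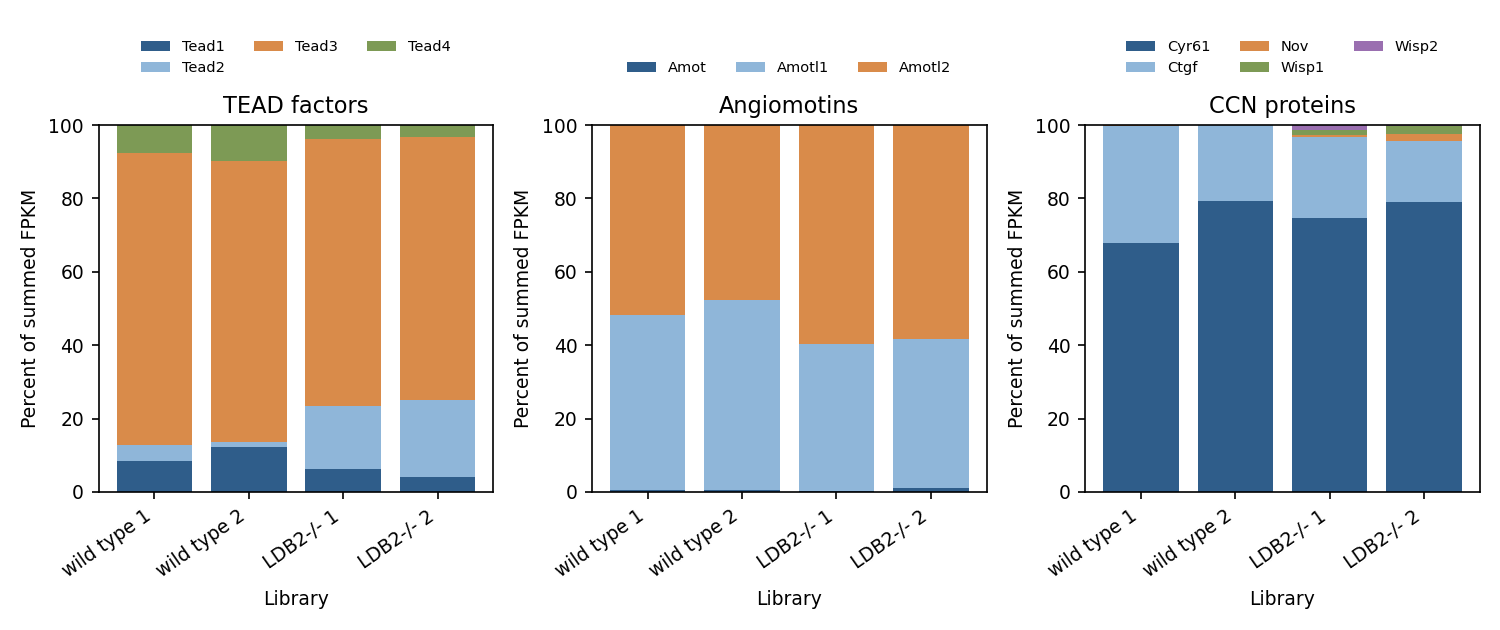
Share of each gene in the summed FPKM of its family, in percent, in each of the 4 libraries. Tead3 exceeds 71% of the TEAD sum in every library, Tead2 is larger in both LDB2-/- libraries, and Cyr61 is the largest part of the CCN sum in every library.

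In the kinase cassette list, 14 of 23 tested genes were called, 3 higher and 11 lower. Among all tested genes 57.2% were called, 28.4% of genes as higher and 28.8% as lower. The median log2 fold change of the 23 genes was -0.25, beside -0.01 over all tested genes. With the library total the list had 0 higher and 13 lower, beside 2248 and 5096 among all tested genes. Mob1a and Mob1b encode adaptors that activate LATS kinases. Mob1a fell by 1.71 (SE 0.24, adjusted p = 0.00245), from 28.6 and 41.9 FPKM to 10.3 and 7.02 FPKM. Mob1b fell by 1.34 (adjusted p = 0.0311), a call lost without wild type replicate 2 (-0.78) and without LDB2-/- replicate 2 (-1.03). Lats1 fell by 0.73 (SE 0.16, adjusted p = 0.0105). The scaffold gene Sav1 fell by 0.41 and the MST kinase gene Stk3 rose by 0.63. The call of Sav1 was lost without any 1 of the 4 libraries. The call of Stk3 (adjusted p = 0.0399) was lost under 9 of 16 alternatives. These included the fits without wild type replicate 1, without wild type replicate 2 and without LDB2-/- replicate 1, and the library total (0.32). The other MST kinase gene Stk4 (0.10) and the upstream regulator Nf2 (0.20) were not called, and both turned negative with the library total. The LATS-related kinase gene Stk38l had the lowest value of the list (-1.99), followed by Wwc2 (-1.93).

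The STRIPAK phosphatase complex removes the activating phosphate from MST kinases. Of its 13 tested genes 1 rose and 5 fell, or 0 and 8 with the library total. Beside these counts, 28.4% of all tested genes were called higher and 28.8% lower, or 2248 and 5096 of 12400 with the library total. Slmap fell by 1.13 (SE 0.12, adjusted p = 0.000913). Strn fell by 1.09, a call lost without wild type replicate 2 (-0.77). The catalytic and scaffold subunits of the phosphatase, Ppp2ca (0.21) and Ppp2r1a (0.30), were not called; they are named after their values were seen.

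Among junction, polarity and 14-3-3 genes, 7 of 26 rose and 6 fell, against 4 and 11 with the library total and 6 and 9 with quantile normalization. All tested genes were called higher at 28.4% and lower at 28.8%. These were 2248 and 5096 of 12400 genes with the library total and 3329 and 3832 with quantile normalization. The epithelial 14-3-3 gene Sfn rose by 1.44, from 1000.3 and 834.1 FPKM to 1811 and 2161 FPKM. Mpp5, which encodes the polarity protein PALS1, fell by 1.81 (SE 0.17, adjusted p = 0.000630). The YAP-binding phosphatase gene Ptpn14, itself a target, fell by 1.29 (SE 0.21, adjusted p = 0.00387). The LIM domain genes Limd1 and Ajuba fell by 0.90 and 0.49, and the call of Ajuba was lost without LDB2-/- replicate 2 (-0.45).

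**Figure D4:**
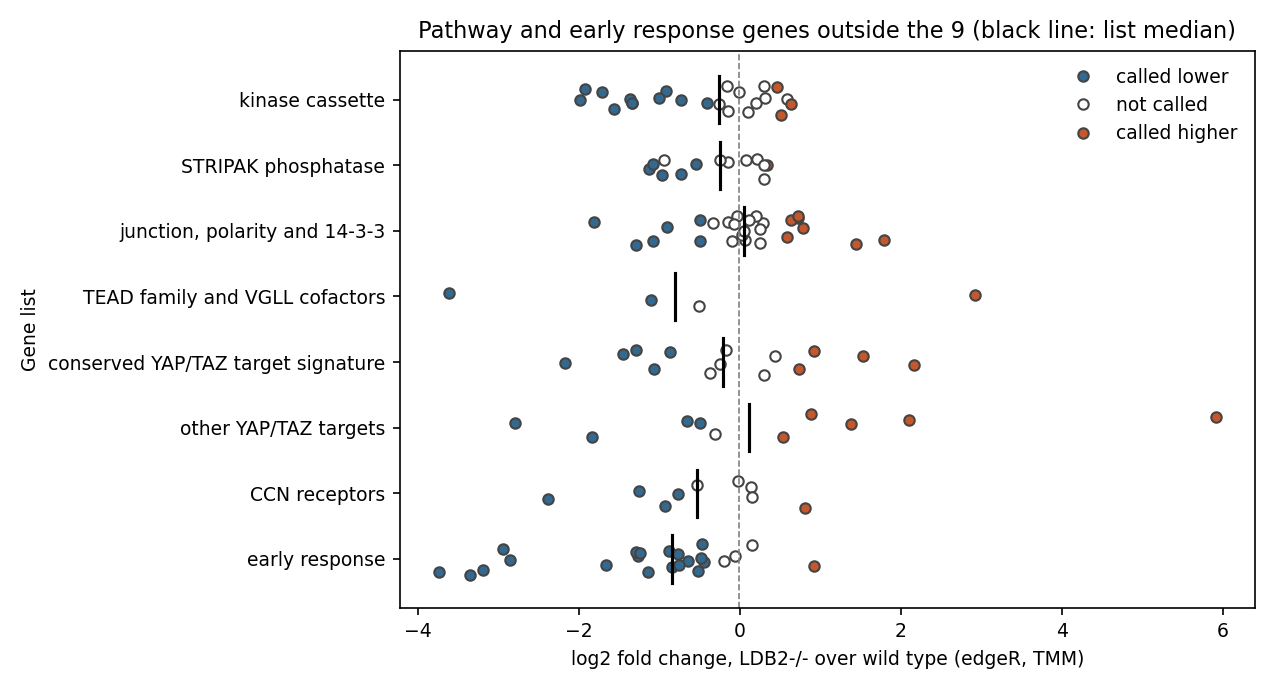
Log2 fold change (TMM scaling) of every tested gene of the lists outside the 9, with filled points for genes called higher or lower, the list median as a black line and the median of all tested genes dashed. The conserved target signature has called genes on both sides, 4 higher and 5 lower, whereas the early response list has 19 lower and 1 higher. Among all tested genes 28.4% were called higher and 28.8% lower.

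Targets of YAP and TAZ outside the 9 were called in both directions, as tested genes were in general (28.4% higher, 28.8% lower). In a signature of conserved targets from several tumour types, 14 of 18 genes were tested, of which 4 rose and 5 fell, or 3 and 7 with the library total. The median log2 fold change was -0.21, beside -0.01 over all tested genes. Igfbp3, an insulin-like growth factor binding protein gene, fell by 2.18 (SE 0.13, adjusted p = 0.000172), from 69.3 and 62.8 FPKM to 11.2 and 12.2 FPKM. Crim1, Ptpn14, Tgfb2 and Asap1 also fell, by 1.45, 1.29, 1.07 and 0.87. Tgfb2 reached 1 FPKM in the wild type libraries alone, and its call was lost without wild type replicate 1 (-0.99). In the other direction, the growth arrest gene Gadd45a rose by 2.17 (SE 0.19, adjusted p = 0.000486), from 5.44 and 7.06 FPKM to 23.6 and 21.4 FPKM. Arhgef17, Fjx1 and Nuak2 rose by 1.53, 0.92 and 0.74. The call of Nuak2 was lost without wild type replicate 2, without LDB2-/- replicate 2 and with the library total (0.42). Ankrd1, a common marker of YAP activity, had at most 0.114 FPKM in any library and was not tested.

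In a second list of reported targets, 10 of 12 genes were tested, of which 5 rose and 4 fell. Thbs1, the gene of the matricellular protein thrombospondin 1, fell by 2.80 (SE 0.21, adjusted p = 0.000302), from 61.4 and 90.0 FPKM to 9.62 and 7.81 FPKM. Myc fell by 0.66. Tagln rose by 5.91 and Gli2 by 2.1, and both reached 1 FPKM in the LDB2-/- libraries alone. Ccnd1 rose by 1.38 and the epidermal growth factor receptor ligand gene Areg by 0.89. Birc5 rose by 0.53, a call lost without wild type replicate 1, without wild type replicate 2, without LDB2-/- replicate 2 and with the library total (0.21). Genes that entered the test in both genotypes numbered 7 in this list, 3 higher and 3 lower. Tagln marks smooth muscle and other contractile cells. Markers of other cell types moved alongside: all 6 tested of 12 endothelial markers rose, with summed TMM-scaled CPM of 6.47 and 10.1 in wild type against 75.8 and 81.0 in LDB2-/-, and all 8 tested of 10 skeletal muscle markers rose, from sums of 5.38 and 4.05 to 65.3 and 56.5. Of these, the 6 endothelial genes and 6 of the muscle genes entered the test through LDB2-/- alone, and their part in the rise of Tagln was not tested. In general, 28.4% of tested genes were called higher and 28.8% lower.

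Of 9 tested receptor genes of CCN proteins, 1 was called higher and 4 lower, a share of calls near the 57.2% of all tested genes. The integrin gene Itgb3 stayed below 1 FPKM in every library and was not tested. The integrin gene Itga6, also a marker of basal keratinocytes, fell by 2.38 (SE 0.17, adjusted p = 0.000268). The integrin genes Itgav and Itgb1 and the syndecan gene Sdc4 fell by 1.25, 0.76 and 0.93. Itgb5 rose by 0.80 (SE 0.15, adjusted p = 0.00685).

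Early response genes, the class of rapidly induced genes to which Cyr61 belongs, mostly fell. Of 23 tested genes 20 were called, 19 lower and 1 higher, and the median log2 fold change was -0.84. Among all tested genes 57.2% were called, 28.8% of genes as lower, with a median of -0.01. With the library total the list had 1 higher and 20 lower, beside 2248 and 5096 among all tested genes. Atf3 fell by 3.74 (SE 0.12, adjusted p = 7.14e-05), from 126.5 and 129.6 FPKM to 8.34 and 7.0 FPKM. Nr4a1, Fosb, Dusp1 and Fos fell by 3.35, 3.19, 2.94 and 2.86, beside a log2 fold change of -3.40 for Cyr61. Jund rose by 0.92. Srf, the gene of serum response factor, had 32.1 and 34.2 FPKM in wild type against 19.7 and 18.5 FPKM in LDB2-/-.

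The genes whose pattern over the 4 libraries was most like that of Cyr61 were found by Euclidean distance between log2 TMM-scaled CPM, centred on each gene's mean, among 11804 named genes. They were Ccdc3 (0.107), Nr4a1 (0.130), Adamts14 (0.160), Cyp4v3 (0.173) and Crispld2 (0.175), where a smaller distance is a closer pattern. Adamts14, Cyp4v3 and Crispld2 reached 1 FPKM in the wild type libraries alone. Since the libraries of each genotype lay close together for Cyr61, a small distance to it mainly reflects a similar difference between genotypes. Ccdc3 had 42.4 and 43.1 FPKM in wild type against 3.32 and 3.28 FPKM in LDB2-/-. For Amotl1 the nearest genes were Itga3 (0.0283), Heatr5a (0.0536), Atm (0.0612), Mdc1 (0.0668) and Plch2 (0.0808). Itga3, an integrin gene of basal keratinocytes, had 26.3 and 37.1 FPKM in wild type against 15.9 and 14.7 FPKM in LDB2-/-, and so shared with Amotl1 the gap between the wild type libraries. With 4 libraries such distances describe these samples only.

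Markers of the cell types of the epidermis also differed between genotypes, and their calls are counted below. Beside these counts, 28.8% of all tested genes were called lower and 28.4% higher. All 13 basal keratinocyte markers fell. Their median log2 fold change was -1.57, with summed TMM-scaled CPM of 27605 and 25393 in wild type against 11440 and 11580 in LDB2-/-. Of 8 suprabasal markers 6 fell, with sums of 33194 and 28241 against 7145 and 7005. All 19 hair shaft and inner root sheath markers rose, at a median of 7.30, with sums of 208.7 and 920.9 against 131189 and 143486, and the sums of the wild type libraries differed. Of these markers, Krt74 reached 1 FPKM in the LDB2-/- libraries alone. Of the 6 tested of 10 fibroblast markers 5 rose and 1, Thy1, fell. Their summed TMM-scaled CPM was 191.4 and 169.6 in wild type against 221.4 and 282.0 in LDB2-/-. The summed FPKM of the 10 went the other way, from 90.3 and 92.6 to 74.0 and 80.3. In bulk RNA, fewer cells of a type and less RNA per cell cannot be told apart. The part of these shifts in the lower Cyr61, Ctgf, Tead1 and Amotl1 was not tested.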

How the data were processed

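RNA-seq libraries were made from total RNA of back skin with the Illumina TruSeq RNA kit, per the labels' protocols. Per the submitters' processing notes, the build was mm10 and the tools were HISAT2 2.1.0, an aligner, StringTie 1.3.4d, a quantifier, and bcl2fastq 1.8.4. Whether counting used strand is not given in the sources used here, so overlapping and antisense genes cannot be separated. The authors deposited read counts per gene and FPKM, per the file headers, and their own comparison, of which the signed fold change, a score below 0 where LDB2-/- is lower, is quoted. Its deposited adjusted p-value was not used, nor were 4 columns of normalized values.

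Of 17721 genes, the 12400 reaching 1 FPKM in at least 2 libraries entered the test, all 9 members among them. Counts were fitted with edgeR 4.0.16 (quasi-likelihood F-test, TMM, two-sided, Benjamini-Hochberg over all tested genes, threshold 0.05) in R 4.3.3. The wild type libraries had TMM factors of 1.105 and 1.128, the LDB2-/- libraries 0.920 and 0.872. The standard error is the one implied by the F statistic. The edgeR fit was run on simulated counts in which far fewer genes changed than were called here. That run therefore does not show how the fit or the scaling behaves in these data. Alternatives used limma 3.58.1, DESeq2 1.42.0, other scalings, filters, pseudocounts and left-out libraries. Members and lists were chosen with earlier results of these data known. Named genes were the members, the TEAD, VGLL and CCN genes, 7 core kinase cassette genes, up to 5 called genes of each list in each direction, and the 5 nearest to Cyr61 and to Amotl1. Some genes that this rule selects are not reported here. Promoter sequences are from RefSeq, matched by gene ID. Intervals of counting error are not given, since all 9 genes had 245 counts or more in each library.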

Additional observations from a re-analysis of the deposited data

How the results depend on the processing

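Cyr61, Ctgf, Amotl1, Tead1, Yap1, Wwtr1, Lats2 and Amotl2 were lower in LDB2-/- under each of the alternatives that included them. Tead3 was negative under 5 of 17. The values of Cyr61 ran from -3.72 to -3.33 and those of Ctgf from -4.23 to -3.31. The median log2 fold change of the 9 genes was -0.33 with TMM, -0.64 with the library total, -0.56 with limma on log2(FPKM + 0.1), and between -0.52 (without LDB2-/- replicate 1) and -0.15 (without LDB2-/- replicate 2) when 1 library was left out. In the STRIPAK phosphatase list DESeq2 called 10 genes against 6, and in the TEAD and VGLL list 1 gene was called with a mean FPKM of 5 or more against 3, where 2 genes were tested. No named gene that was called turned to the other direction under any alternative. The replicate number as a block called 6092 genes, 2916 higher and 3176 lower, against 7097, and 16 early response genes as lower against 19. Under it the calls of Sav1, Stk3, Rassf1 and Birc5 were among those lost. The deviations of libraries with the same number correlated at r = -0.16 across genes, and the crossed pairing, added after seeing the data, called 7269. The values of Lats2 ran from -0.64 to -0.07. With 2 libraries per genotype, the scaling and the spread between libraries limit what can be resolved. Changes as small as those of Yap1, Wwtr1, Amotl2, Lats2 and Tead3 were near that limit or below it.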
